A study of Homo sapiens with 7 samples.

Results

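The semaphorins, plexins and neuropilins are a ligand and receptor system, represented in this RNA-seq experiment by 31 protein-coding genes: 20 semaphorins, 9 plexins and 2 neuropilins. The membership rule used gene symbols (SEMA with a class number, PLXN with a letter from A to D, NRP1 and NRP2) and no measured value, and it was applied to the 19978 genes of the count table. All 31 had enough reads to enter the test, which covered 14863 genes. The RNA came from HEK-293, an established human embryonic kidney line that carries adenovirus DNA, kept for 48 h under one of 3 conditions. Control cells (n = 2) were in DMEM medium at pH 7.4 with DMSO, the solvent of the compound. The acidosis cells (n = 3) received the same volume of DMSO in medium acidified to pH 6.6. The SRPIN340 cells (n = 2) received 10 µM SRPIN340, an inhibitor of the kinases that phosphorylate SR splicing factors, in medium at pH 7.4. No samples combined the compound with pH 6.6, and all cells were 1 line in serum-containing medium.

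Semaphorins are defined by the sema domain and were first known as cues that repel growing axons. Class 3 members are secreted and mostly need a neuropilin to hold them to a plexin, classes 4, 5 and 6 span the membrane, and SEMA7A sits on a lipid anchor. Plexins transmit the signal through a cytoplasmic GTPase-activating domain and through other small GTPases, which leads to loss of adhesion and a reshaped cytoskeleton. In the kidney the system is known for guiding vessel growth and for shaping podocytes and tubule branches. SEMA6D, a class 6 member that binds plexin A1, is the one among these genes whose exon inclusion the study followed by RT-PCR.

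Total estimated counts were between 21788457 and 24110460 in the pH 7.4 samples and between 13615816 and 21370143 in acidosis. The 31 genes together took 9.68 to 10.42 of every 10000 counts at pH 7.4 and 5.80 to 6.05 in acidosis, and the TMM factors, which adjust library sizes so that the bulk of genes is level, were 1.17 to 1.21 and 0.782 to 0.8. Levels below are counts-per-million (CPM) of the TMM-adjusted library size unless a sentence says otherwise. All 8 HEK-293 marker genes were detected, with a summed level of 1613 to 1683 CPM at pH 7.4 and 3744 to 3761 CPM in acidosis. Most of that rise was VIM (836 to 892 CPM and 2675 to 2745 CPM), and the list moved both ways in acidosis, with 5 genes that rose and 3 that fell, among them the kidney lineage factor PAX2 (5.30 to 7.05 CPM and 1.2 to 2.46 CPM). Of 12 markers of other cell types, CD3E was at 0 in every sample, and the sum of the list, most of it COL1A1, was 30.5 to 39.8 CPM at pH 7.4 and 61.8 to 73.0 CPM in acidosis. The part of these marker shifts in the results below was not tested. In bulk RNA, fewer cells that express a gene and less of its RNA per cell cannot be told apart. The study's methods describe the sequenced repeats of each condition as biological ones, each run in replicate, and the table holds 1 column per repeat.

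Levels in untreated cells are best compared between genes per kb of the canonical transcript. On that scale PLXNB2, a plexin for class 4 semaphorins, led in the control samples with 29.4 CPM per kb, followed by NRP1 (18.9), SEMA6A (9.5), SEMA3C (7.08) and PLXNA1 (5.06). SEMA6D was 14th of 31 with 3.21 CPM per kb. The 4 lowest were SEMA7A (0.486), SEMA3G (0.186), PLXNB3 (0.123) and SEMA4A (0.106). The first 4 genes did not overlap with their neighbours in that order, but 20 of the 30 neighbouring pairs did. In acidosis PLXNB2 and NRP1 still came first, with 30.0 and 11.1 CPM per kb, and 27 of the 30 neighbouring pairs overlapped. SEMA6D stood at rank 20 with SRPIN340 (2.51 CPM per kb) and at rank 25 in acidosis (0.471). PLXND1 moved from rank 15 in control (3.18 CPM per kb) to rank 4 in acidosis (7.56).

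**Figure D1:**
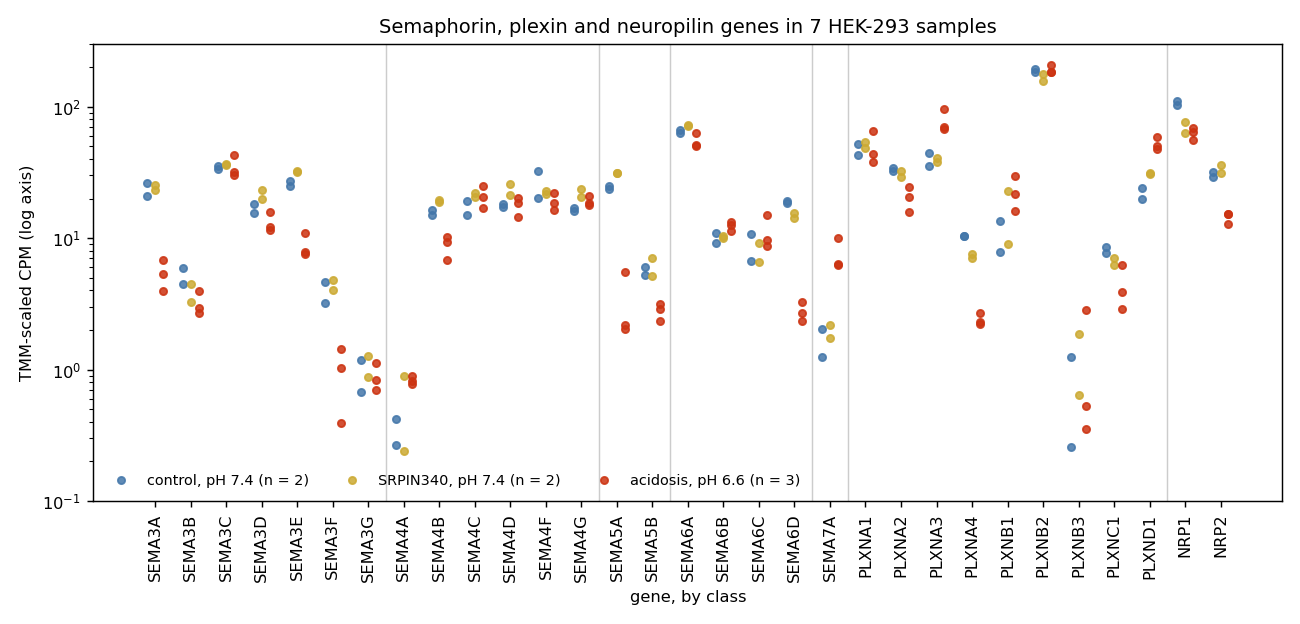
Level of each semaphorin, plexin and neuropilin gene in each of the 7 samples, as TMM-scaled CPM on a log axis, with genes grouped by class and 1 point per sample. The 3 acidosis points of SEMA6D, SEMA5A, SEMA3A, SEMA3E and PLXNA4 lie below all points at pH 7.4, those of SEMA7A and PLXND1 lie above them, and PLXNB2 is the highest gene in every sample.

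The first comparison asks what 2 days at pH 6.6 did to these transcripts. In the quasi-likelihood test of edgeR, adjusted by Benjamini-Hochberg over every tested gene, 11 of the 31 genes were called, meaning an adjusted p under 0.05 and a log2 fold change beyond 1 in size. This was 35.5% of the members beside 33.5% of all tested genes, so their share was near the background. Called lower were SEMA5A, SEMA6D, SEMA3A, SEMA3F, SEMA3E, SEMA5B, PLXNA4 and NRP2 (8 genes, 25.8% beside 19.1% of all tested genes). Called higher were SEMA7A, PLXND1 and PLXNB1 (3 genes, 9.68% beside 14.4%). Without the fold limit 16 genes passed (51.6% beside 66.7%), the other 5 being SEMA4B, NRP1, PLXNA2 and PLXNC1, which fell, and PLXNA3, which rose. The acidosis and control samples did not overlap for 13 members that were lower (39.5% of all tested genes) and 7 that were higher (37.0% of all tested genes). The median log2 fold change of the members was -0.25, and that of all tested genes was -0.052.

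The direction of the genes near 0 depended on the scaling. When libraries were scaled by total count only, the median of all tested genes shifted by -0.57 to -0.626, and the members then had 1 call higher and 14 lower. The calls higher made up 27.3% of the members' calls with TMM and 6.67% with total counts (43.0% and 13.5% over all genes). The 8 genes called lower kept negative values under both, as SEMA7A, PLXND1, PLXNA3 and PLXNB1 kept positive ones, although PLXNB1 then no longer passed.

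**Figure D2:**
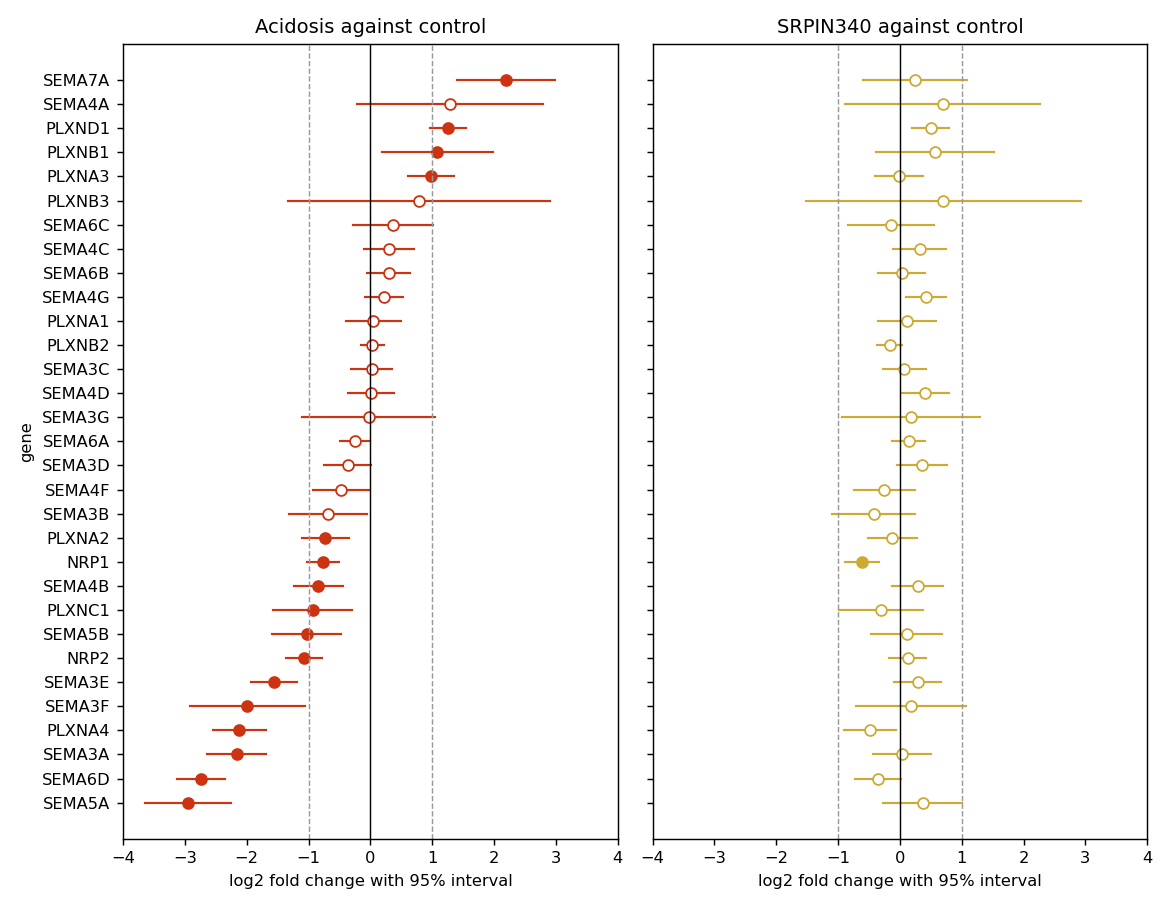
Log2 fold change of the 31 genes with its 95% interval, in acidosis (left) and with SRPIN340 (right), both against the same 2 control samples; filled points have an adjusted p under 0.05 by edgeR and dashed lines mark a log2 fold change of 1 in either direction. In acidosis values run from -2.95 for SEMA5A to 2.19 for SEMA7A, while with SRPIN340 the 1 filled point is NRP1 at -0.61.

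Among the 4 class 6 ligands, SEMA6D was the member that fell with TMM, RLE and DESeq2 scaling, while with total counts SEMA6A fell as well (-0.82). It measured 18.6 and 19.3 CPM in control, 14.1 and 15.5 CPM with SRPIN340, and 3.28, 2.35 and 2.71 CPM in acidosis. The acidosis samples lay far below the other 4, and the SRPIN340 samples lay below both controls. The fall in acidosis was 6.67-fold, a log2 fold change of -2.74 with a standard error of 0.171 (95% interval -3.12 to -2.35, edgeR adjusted p = 6.18e-07), and it rested on 55.3, 25.6 and 31.5 estimated counts in acidosis against 517 and 549 in control.

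Its 3 class relatives are membrane ligands of plexin A receptors as well. SEMA6A, the most abundant of the class, was at 66.8 and 62.9 CPM in control, 72.1 and 71.5 CPM with SRPIN340, and 49.9, 62.9 and 51.3 CPM in acidosis. Acidosis replicate 2 reached the lower control, so the groups overlapped, and the log2 fold change of -0.25 (interval -0.49 to -0.00, edgeR adjusted p = 0.0687) did not pass. Without that replicate it was -0.35 and passed (edgeR adjusted p = 0.00614).
SEMA6B had 9.20 and 11.0 CPM in control, 10.1 and 10.4 CPM with SRPIN340, and 12.6, 11.4 and 13.2 CPM in acidosis. All 3 acidosis values were above the others, but the log2 fold change of 0.30 (interval -0.05 to 0.64) did not pass and was -0.28 with total counts.
SEMA6C had 6.65 and 10.7 CPM in control, 9.10 and 6.55 CPM with SRPIN340, and 15, 8.66 and 9.72 CPM in acidosis. These groups overlapped, with a log2 fold change of 0.37 (interval -0.28 to 1.02), which was -0.21 with total counts.

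A ratio of 2 genes within a sample does not depend on the scaling. There were 0.279 and 0.307 SEMA6D counts per SEMA6A count in control, 0.196 and 0.217 with SRPIN340, and 0.0663, 0.0380 and 0.0536 in acidosis. The mean log2 ratio was -1.77 ± 0.0972 (SD, n = 2) in control and -4.28 ± 0.405 (SD, n = 3) in acidosis, a difference of -2.51. For SEMA6B, SEMA6C and the receptor PLXNA1 in the place of SEMA6A the differences were -3.06, -3.12 and -2.78. In each of these 4 ratios the groups did not overlap, and the two-sided exact permutation p was 0.1, the smallest that 2 samples against 3 allow over 10 splits (0.125 after Benjamini-Hochberg adjustment over the 5 ratios computed). Relative to PLXNA4, a further receptor of the class, the groups did not overlap either. The difference there was smaller, -0.68 (exact permutation p = 0.2, adjusted 0.2), as both genes were lower in acidosis. With SRPIN340 the differences to SEMA6A, SEMA6B, SEMA6C and PLXNA1 were -0.50, -0.38, -0.23 and -0.48, in a design of 2 against 2 with 6 splits that cannot reach a small p.

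**Figure D3:**
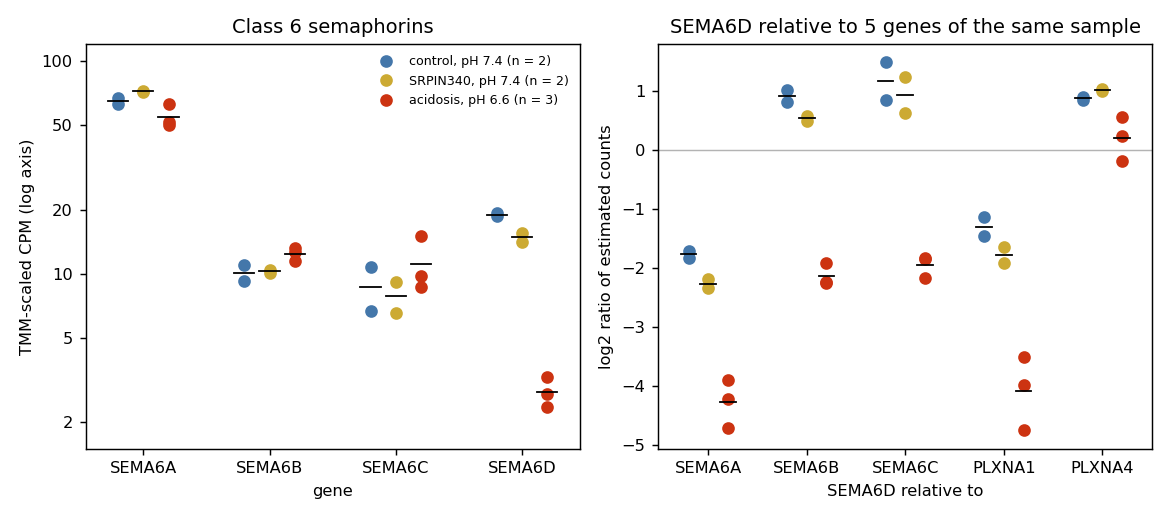
Left: TMM-scaled CPM of the 4 class 6 semaphorin genes on a log axis, 1 point per sample, black bars at the group means. Right: log2 ratio of SEMA6D to each of 5 genes within the same sample; against SEMA6A, SEMA6B, SEMA6C and PLXNA1 the 3 acidosis samples lie more than 1 unit below every sample at pH 7.4, while against PLXNA4 the mean moved by -0.68.

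SEMA6D lies on the plus strand of chromosome 15 (ENSG00000137872.17, chr15:47184101-47774228, GRCh38), with 19 exons in the canonical GENCODE release 44 transcript. That transcript starts at position 47717505 and spans 56.7 kb, while the gene as annotated spans 590.1 kb. The counts add up all transcripts of the gene, so they do not measure exon inclusion. The study's RT-PCR junction pair reads exon 18, chr15:47768581-47768748, whose 168 bases are all coding and amount to 56 codons with no base left over. An exon with the same start is in 5 of the 15 coding transcripts, and this exact exon is in 3. Its sequence is given because inclusion of this exon was what the study assayed in a gene whose summed transcripts fell. Capitals mark the bases of the forward primer and the 7 bases under the reverse primer, whose other 14 bases lie in exon 19.
SEMA6D exon 18: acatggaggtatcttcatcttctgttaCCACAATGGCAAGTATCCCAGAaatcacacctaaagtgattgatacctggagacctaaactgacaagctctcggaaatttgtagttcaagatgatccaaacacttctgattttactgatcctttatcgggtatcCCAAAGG
The 2 primers of the junction pair, with a product of 155 bases, and the 2 primers within exon 19, with a product of 295 bases, were matched to the transcripts.
junction pair, forward: ccacaatggcaagtatcccaga
junction pair, reverse: ttcccatcgtacaccctttgg
exon 19 pair, forward: ttttccgtctagtccgccac
exon 19 pair, reverse: gttctggtgtgccatctgga
Both primers of the junction pair matched 3 of the 15 coding transcripts, and both of the exon 19 pair matched 8.

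Of the 7 secreted class 3 ligands, 3 fell in acidosis with TMM, RLE and DESeq2 scaling and 6, all but SEMA3G, with total counts. Of all tested genes 34.2% passed lower with TMM. The share of all tested genes called lower, with the fold limit, was 19.1% with TMM and 35.0% with total counts, so the background moved too. SEMA3A, the classical axon repellent that acts through neuropilin 1 and A-type plexins, had 26.3 and 20.9 CPM in control, 25.4 and 23.2 CPM with SRPIN340, and 3.93, 5.36 and 6.77 CPM in acidosis. No acidosis sample came near those at pH 7.4, and the fall was 4.48-fold (log2 fold change -2.16, SE 0.210, edgeR adjusted p = 1.15e-05).
SEMA3E, which can bind plexin D1 without a neuropilin, had 27.4 and 25 CPM in control, 31.7 and 32.3 CPM with SRPIN340, and 10.9, 7.84 and 7.55 CPM in acidosis. The fall was 2.95-fold (log2 fold change -1.56, SE 0.164, edgeR adjusted p = 1.95e-05), with no overlap.
SEMA3F, a ligand that prefers neuropilin 2, had 3.21 and 4.62 CPM in control, 4.06 and 4.82 CPM with SRPIN340, and 1.43, 1.03 and 0.394 CPM in acidosis. It fell 3.96-fold (log2 fold change -1.99, SE 0.410, edgeR adjusted p = 0.00181), from 89.0 and 132 counts to 24.1, 11.3 and 4.58.
The other 4 did not pass. SEMA3C, the most abundant class 3 gene per kb, had a log2 fold change of 0.02 (interval -0.31 to 0.35), SEMA3D -0.37 (interval -0.75 to 0.01), SEMA3B -0.69 (interval -1.32 to -0.06, edgeR adjusted p = 0.0534) and SEMA3G, with at most 33.8 counts in a control sample, -0.03 (interval -1.11 to 1.04). SEMA3C, SEMA3E, SEMA3A and SEMA3D are all on the minus strand of a 4.44 Mb stretch of chromosome 7 (chr7:80742538-85187056), so 2 genes that fell stand between 2 that did not pass with TMM but fell with total counts (SEMA3C -0.56, SEMA3D -0.94).

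The 2 class 5 genes, transmembrane ligands that carry thrombospondin repeats, were both called lower, as were 19.1% of all tested genes. SEMA5A (ENSG00000112902.12, chr5:9035033-9546075) had 24.8 and 23.6 CPM in control, 31.1 and 31.3 CPM with SRPIN340, and 2.17, 5.50 and 2.03 CPM in acidosis. Its 7.71-fold fall had the largest log2 fold change of the 31 genes, -2.95 (SE 0.306, interval -3.64 to -2.26, edgeR adjusted p = 1.86e-05), and acidosis replicate 2 was the highest of its group. SEMA5B had 5.25 and 6.05 CPM in control, 7.03 and 5.13 CPM with SRPIN340, and 2.87, 3.13 and 2.34 CPM in acidosis, a 2.04-fold fall (log2 fold change -1.03, SE 0.248, edgeR adjusted p = 0.00447).

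SEMA7A, the lipid-anchored ligand of plexin C1 and beta-1 integrins, was the semaphorin that rose. It had 1.24 and 2.04 CPM in control, 1.74 and 2.20 CPM with SRPIN340, and 6.38, 6.23 and 10.1 CPM in acidosis, with acidosis replicate 3 the highest. The rise was 4.57-fold (log2 fold change 2.19, SE 0.351, interval 1.40 to 2.98, edgeR adjusted p = 3.53e-04), from 34.5 and 58.0 counts to 107, 67.9 and 118. The gene is ENSG00000138623.10, on the minus strand at chr15:74409289-74433958.

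Among the 6 class 4 ligands, best known in immune cells and as partners of B-type plexins, SEMA4B fell, while 34.2% of all tested genes passed lower. With total counts SEMA4D, SEMA4F and SEMA4G fell as well, but the median of all tested genes then moved to -0.626. SEMA4B measured 16.4 and 14.9 CPM in control, 19.5 and 18.8 CPM with SRPIN340, and 9.28, 10.2 and 6.81 CPM in acidosis (log2 fold change -0.84, SE 0.175, edgeR adjusted p = 0.00193). The log2 fold changes of SEMA4C, SEMA4D, SEMA4F and SEMA4G were between -0.48 and 0.30 and did not pass. SEMA4A had the value 1.29 with an interval of -0.21 to 2.79, on at most 15.1 counts in an acidosis sample and 12 in a control sample. Reads of SEMA4G are uncertain, because its exons share 1215 bases with those of MRPL43 on the other strand and strand use in counting is not given in the sources used here.

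The 9 receptors did not move as a block: 3 rose, 3 fell and 3 did not pass with TMM, and 2 rose and 5 fell with total counts. The split with TMM was near that of all tested genes, of which 32.5% passed higher and 34.2% lower. With total counts the median of all tested genes moved to -0.626, so the background moved too. Plexins A1 to A4 are the signalling partners of neuropilins and of class 6 ligands. PLXNA1 had 51.6 and 42.7 CPM in control, 53.5 and 48.7 CPM with SRPIN340, and 38.0, 65.0 and 43.8 CPM in acidosis. The widest spread was within acidosis, where replicate 2 was above all others, and the log2 fold change of 0.05 (interval -0.40 to 0.49) did not pass.
PLXNA2 had 32.3 and 34.4 CPM in control, 29.1 and 32.2 CPM with SRPIN340, and 15.7, 24.6 and 20.4 CPM in acidosis, and it fell 1.66-fold (log2 fold change -0.73, SE 0.168, edgeR adjusted p = 0.00338).
PLXNA3 had 44.4 and 35.2 CPM in control, 37.8 and 40.8 CPM with SRPIN340, and 95.9, 70.6 and 67.9 CPM in acidosis, and it rose 1.97-fold (log2 fold change 0.98, SE 0.164, edgeR adjusted p = 4.73e-04). So within the A subfamily PLXNA2 fell and PLXNA3 rose, under each of the 4 scalings run (0.40 for PLXNA3 with total counts), neither overlapping with control.
PLXNA4, a receptor for SEMA3A and for class 6 ligands, had 10.4 and 10.3 CPM in control, 7.10 and 7.59 CPM with SRPIN340, and 2.22, 2.70 and 2.30 CPM in acidosis. The 3 groups did not overlap with one another, and the fall in acidosis was 4.34-fold (log2 fold change -2.12, SE 0.189, interval -2.54 to -1.69, edgeR adjusted p = 6.36e-06).

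B-type plexins bind class 4 ligands and activate RHOA through guanine exchange factors. PLXNB1, the SEMA4D receptor, had 7.86 and 13.6 CPM in control, 22.7 and 9.05 CPM with SRPIN340, and 21.7, 16.2 and 29.9 CPM in acidosis. Replicates of a group differed by more than 1.5 times here. The rise in acidosis (log2 fold change 1.08, SE 0.400, edgeR adjusted p = 0.0368) did not pass without control replicate 1 (0.73), acidosis replicate 1 (1.11) or acidosis replicate 3 (0.83). With replicate number as a block it did not pass either (0.77), but that fit also left out acidosis replicate 3.
PLXNB2 had 194 and 183 CPM in control, 178 and 158 CPM with SRPIN340, and 208, 184 and 185 CPM in acidosis, with overlap and a log2 fold change of 0.03 (interval -0.15 to 0.22). With total counts the value was -0.54.
PLXNB3 was near the detection limit, with 0.258 and 1.25 CPM in control, 0.637 and 1.85 CPM with SRPIN340, and 2.85, 0.355 and 0.525 CPM in acidosis. These values, on 3.87 to 48.8 counts, overlapped fully (log2 fold change 0.78, interval -1.33 to 2.90), and 1432 bases of its exons are shared with SRPK3 on the same strand, so its reads are uncertain.

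Plexin C1 is the receptor of SEMA7A. PLXNC1 had 8.63 and 7.72 CPM in control, 6.19 and 7.05 CPM with SRPIN340, and 2.89, 3.88 and 6.27 CPM in acidosis. The fall against control (log2 fold change -0.93, SE 0.286, edgeR adjusted p = 0.0161) did not pass without control replicate 1 (-0.85), and 177 exonic bases overlap CEP83 on the other strand. SEMA7A thus rose while PLXNC1 fell, and ITGB1, the integrin subunit through which it also acts, rose (log2 fold change 1.73, edgeR adjusted p = 4.19e-08).
Plexin D1 is known from vessel patterning as the SEMA3E receptor. PLXND1 had 20 and 24 CPM in control, 30.8 and 31.3 CPM with SRPIN340, and 47.6, 50.5 and 58.7 CPM in acidosis. The 3 groups were fully apart in that order. The rise in acidosis was 2.37-fold (log2 fold change 1.25, SE 0.129, interval 0.96 to 1.54, edgeR adjusted p = 1.79e-05), while its ligand SEMA3E fell.

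Neuropilins have no signalling domain of their own and serve as co-receptors for class 3 semaphorins and for VEGF. NRP1 had 110 and 103 CPM in control, 76.4 and 63.2 CPM with SRPIN340, and 68.9, 55.3 and 64.1 CPM in acidosis. Both conditions were below both controls and overlapped with each other, and in acidosis the log2 fold change was -0.76 (SE 0.114, edgeR adjusted p = 2.32e-04). NRP2 had 29.4 and 31.8 CPM in control, 35.7 and 31.2 CPM with SRPIN340, and 15.2, 12.9 and 15.3 CPM in acidosis, a 2.11-fold fall (log2 fold change -1.08, SE 0.126, edgeR adjusted p = 4.28e-05). In acidosis the 2 neuropilins thus both fell, while 34.2% of all tested genes passed lower. But with SRPIN340 the value of NRP2 was 0.13 (interval -0.17 to 0.43).

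Summed over their genes, the families shifted against each other. The 20 semaphorins added up to 337 and 341 CPM in control, 384 and 369 CPM with SRPIN340, and 249, 248 and 248 CPM in acidosis. The 2 neuropilins came to 140 and 135 CPM, 112 and 94.5 CPM, and 84.2, 68.2 and 79.4 CPM in the same order. The 9 plexins came to 369 and 352 CPM, 365 and 337 CPM, and 435, 418 and 415 CPM, so that their sum was higher in acidosis with TMM, but with total counts it was lower (432 and 416 CPM in control, 343, 334 and 324 CPM in acidosis). With total counts the sums of semaphorins (394 and 403 CPM against 196, 199 and 194) and neuropilins (164 and 159 CPM against 66.3, 54.6 and 62.1) were lower too. These sums were not tested.

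Shares within a family, taken from levels per kb, are free of the scaling. SEMA6D made up 5.25% and 5.26% of the semaphorin total in control, 3.45% and 3.98% with SRPIN340, and 1.09%, 0.820% and 0.923% in acidosis. SEMA7A went from 0.614% and 0.972% in control to 3.72%, 3.81% and 6.02% in acidosis, and class 5 from 5.31% and 5.24% to 1.53%, 2.30% and 1.32%. Class 6 as a whole held 28.4% and 29.1% in control and 29.5%, 30.5% and 27.9% in acidosis, so its share overlapped although SEMA6D was lower. Among plexins, PLXND1 held 5.96% and 7.42% in control, 9.18% and 10.3% with SRPIN340, and 11.9%, 13.3% and 15.4% in acidosis. PLXNB2 was the largest part of the plexin total in every sample, from 62.1% in control replicate 1 to 52.1% in acidosis replicate 3.

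The second comparison asks what the kinase inhibitor did at neutral pH. By edgeR 0 of the 31 genes were called, beside 0.323% of all tested genes, and 5 had an unadjusted p under 0.05 (16.1% beside 17.6% of all tested genes). DESeq2 also called 0, gave an adjusted p to 21 of the 31, and had 4 at an unadjusted p under 0.05. Without the fold limit NRP1 fell (1.53-fold, log2 fold change -0.61, SE 0.125, interval -0.89 to -0.33, edgeR adjusted p = 0.0412), 1 gene of 31 or 3.23% beside 2.30% of all tested genes. This did not pass when any single control or SRPIN340 sample was left out (values -0.75 to -0.48). It also did not pass without acidosis replicate 3, which shares the estimate of the spread (edgeR adjusted p = 0.0615). The edgeR fit with replicate number as a block, which lacked acidosis replicate 3 too, did not pass it either (adjusted p = 0.0661). DESeq2 passed NRP1 (-0.62, adjusted p = 3.13e-04) and also PLXND1 (0.49, adjusted p = 0.0279), for which edgeR gave 0.50 (interval 0.19 to 0.80, adjusted p = 0.0976).

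SEMA6D had a log2 fold change of -0.36 with SRPIN340 (SE 0.165, interval -0.73 to 0.01, edgeR adjusted p = 0.301). Other members that fell strongly in acidosis had values on both sides of 0 with the compound: PLXNA4 -0.49 (interval -0.91 to -0.07, adjusted p = 0.211), SEMA5A 0.37 (interval -0.27 to 1.01), SEMA3E 0.29 (interval -0.09 to 0.67) and SEMA3A 0.04 (interval -0.43 to 0.51). The groups did not overlap for 10 members that were higher and 6 that were lower (32.3% and 19.4%, beside 27.3% and 26.8% of all tested genes).

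Acidosis and SRPIN340 were compared with each other as well, since both comparisons above share the 2 control samples. Here 10 genes were called (32.3% beside 34.6% of all tested genes) and 16 passed without the fold limit (51.6% beside 67.8%). SEMA7A was called higher, 1 gene or 3.23% beside 14.9% (log2 fold change 1.94, SE 0.346, edgeR adjusted p = 6.99e-04). The 9 called lower were SEMA5A, SEMA6D, SEMA3A, SEMA3F, SEMA3E, PLXNA4, NRP2, SEMA5B and SEMA4B, 29.0% beside 19.7% of all tested genes. SEMA5A differed 9.95-fold (log2 fold change -3.31, SE 0.306, edgeR adjusted p = 7.9e-06) and SEMA6D 5.21-fold (-2.38, SE 0.172, edgeR adjusted p = 1.58e-06). NRP1 did not pass here (-0.15, interval -0.41 to 0.11), and PLXND1 was higher in acidosis by 0.75 (SE 0.126, edgeR adjusted p = 4.74e-04), below the fold limit.

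A property that the choice of genes did not use was the length of the gene. The 31 genes span from 10.0 kb (SEMA3B) to 590.1 kb (SEMA6D) of the genome. All 4 that span 400 kb or more, SEMA6D, SEMA3A (536.9 kb), PLXNA4 (525.3 kb) and SEMA5A (511.0 kb), were called lower in acidosis, with a median log2 fold change of -2.45. Of all 406 tested genes of that span 24.4% were called lower, with a median of -0.33. At the other end, 1 of the 8 members under 25 kb was called, SEMA7A, which rose, while of all 6037 tested genes of that span 19.3% were called higher and 17.5% lower.
Spearman's correlation between gene span and the log2 fold change in acidosis was -0.689 across the 31 members and -0.137 across 14862 tested genes. The points share the same libraries, and members are related genes, so these are descriptions across genes without a test. Across the 44 tested genes of the netrin, slit and ephrin systems, it was 0.00113. Taking the span of the canonical transcript instead, an option chosen after seeing the data because that of SEMA6D is 56.7 kb, gave -0.642 across members and -0.142 across all genes. By that span SEMA6D and SEMA3A (239 kb) are under 400 kb, and only PLXNA4 (453 kb) and SEMA5A (511 kb) remain over it. The correlation between the gene span and the change with SRPIN340 was -0.227 across members and 0.130 across all genes.

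**Figure D4:**
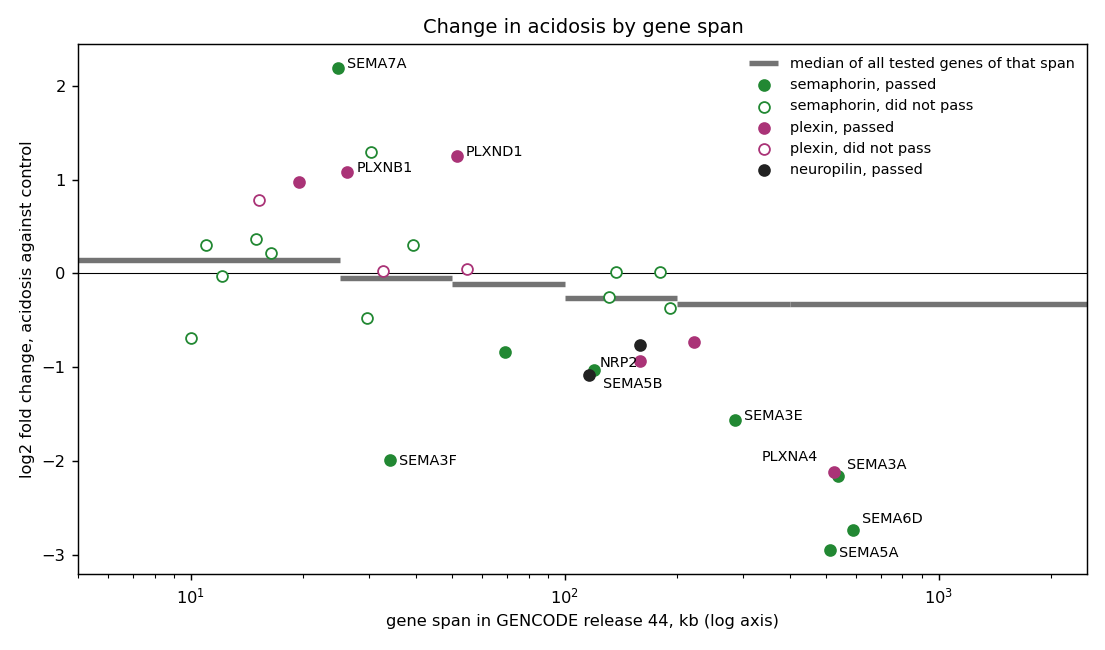
Log2 fold change in acidosis against control (vertical axis) by the genomic span of the gene in kb (log axis), 1 point per member, filled where the adjusted p was under 0.05 by edgeR; grey bars give the median of all tested genes within each range of spans. The 4 members at the right, over 400 kb, lie between -2.95 and -2.12, below the grey bar at -0.33, and points left of 100 kb lie on both sides of 0.

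Promoters were read from RefSeq (GRCh38.p14) as the 250 bases before the annotated start, and 27 of the 31 genes had one, as had 11825 tested genes in all. Their median GC content was 64.4% beside 64.8% over all promoters, and they held a median of 13 CpG beside 21. Searched on both strands, GGGCGG, the letters of an SP-family site, was in 66.7% of the members' promoters beside 66.1% of all. CACGTG was in 11.1% beside 8.68%, TGANTCA in 3.7% beside 4.08%, TGACGTCA in 3.7% beside 2.76%, and TATAAA in 0 of 27 beside 5.95%. The RefSeq start used was not always that of the gene or of the canonical transcript. For PLXNC1, the member with TGANTCA, the 250 bases were chr12:94262369-94262618, within a gene that starts at chr12:94148577. For SEMA6D they were chr15:47183839-47184088, while its canonical transcript starts at 47717505. The promoters of SEMA5A and SEMA7A, the members with the lowest and the highest log2 fold change in acidosis, are shown because both hold GGGCGG or its reverse complement, marked by capitals in which neighbouring and overlapping matches run together. That of SEMA5A is on the minus strand of chr5:9546076-9546325 and that of SEMA7A on the minus strand of chr15:74433959-74434208.
SEMA5A: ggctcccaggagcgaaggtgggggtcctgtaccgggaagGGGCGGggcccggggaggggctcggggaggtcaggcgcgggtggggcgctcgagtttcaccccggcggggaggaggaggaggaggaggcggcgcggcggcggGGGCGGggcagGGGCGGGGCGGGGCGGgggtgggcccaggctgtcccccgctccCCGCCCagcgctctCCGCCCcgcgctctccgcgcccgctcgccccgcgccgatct
SEMA7A: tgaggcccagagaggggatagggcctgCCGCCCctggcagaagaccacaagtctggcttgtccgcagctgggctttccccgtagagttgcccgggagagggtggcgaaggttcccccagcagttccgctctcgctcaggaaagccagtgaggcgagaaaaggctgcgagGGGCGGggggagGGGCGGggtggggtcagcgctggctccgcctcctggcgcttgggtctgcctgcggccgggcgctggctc

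Genes that work with these receptors, and other guidance genes, were counted by the same call, for which the background was 14.4% of all tested genes higher and 19.1% lower. Over all 111 tested of the 117 partner and guidance genes listed, 17 were called higher (15.3%) and 28 lower (25.2%), with a median log2 fold change of -0.38. With total counts the split was 7 higher (6.31% beside 5.48% of all tested genes) and 51 lower (45.9% beside 35.0%). Among 12 tested co-receptors, 2 were called higher and 2 lower (16.7% each, median -0.44). KDR, the VEGF receptor that pairs with NRP1, fell, its mean being 5.14 ± 0.274 CPM in control (SD, n = 2) and 0.523 ± 0.203 CPM in acidosis (SD, n = 3), with a log2 fold change of -3.30 (edgeR adjusted p = 2.01e-05). ITGB1 rose from 472 ± 39.4 to 1571 ± 52.8 CPM, and the neurotrophin receptor NGFR rose from 3.15 ± 0.0864 to 11.6 ± 0.294 CPM.
The 20 GTPases and regulators that plexins act on had 6 calls higher (30.0% beside the 14.4% of all tested genes) and 3 lower (15% beside 19.1%), with a median of 0.55. RHOB, a small GTPase found on endosomes, rose from 50.7 ± 1.76 to 17240 ± 704 CPM (log2 fold change 8.41, SE 0.165, edgeR adjusted p = 8.1e-10). RND3, which antagonises RHOA signalling, rose by 2.79 and RHOA itself by 1.93 on the log2 scale.
Of 22 cytosolic effectors 2 were called higher (9.09%) and 4 lower (18.2%), both below the shares of all tested genes, with a median of -0.35. DPYSL4 (-1.55) and DPYSL2 (-1.47), collapsin response mediators that relay the SEMA3A signal to microtubules, fell, while CDK5R1, an activator of the kinase CDK5, rose (1.5).
Of 7 enzymes that process semaphorins or their receptors 2 were called higher (28.6% beside 14.4%), MMP14 (2.14) and PCSK6 (1.30), and 1 lower (14.3% beside 19.1%), PCSK5 (-1.19), with a median of 0.28. Among 7 tested VEGF ligands and receptors 3 were called, all lower (42.9% beside 19.1%): KDR, the placental growth factor gene PGF (-2.41) and FLT4 (-1.34), with a median of -0.32.

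The other guidance systems were read against the same shares of all tested genes, 14.4% higher and 19.1% lower. Of 13 tested netrin system genes 1 was called higher (7.69%) and 3 lower (23.1%, median -1.12), the largest being NTN4, a laminin-related netrin, at -3.63, then the netrin receptor UNC5C at -1.74 and RGMA, a neogenin ligand, at -1.49. Of 9 slit system genes 2 were called higher (22.2%) and 3 lower (33.3%, median -0.79), among them the receptor ROBO1 at -2.22, SRGAP1 at -1.26 and the ligand SLIT2 at 1.22. Of 22 ephrins and Eph receptors 2 were called higher (9.09%) and 10 lower (45.5%, median -1.01), with EFNB1 at -3.29, EPHB1 at -3.18 and EPHA2 at 2.85. With SRPIN340 edgeR called 0 of these 111 genes, with 17 at an unadjusted p under 0.05 (15.3% beside 17.6% of all tested genes), and DESeq2 called 0 as well, with 15. With no fold limit 3 passed by edgeR (2.70% beside 2.30% of all tested genes): RHOB, which rose (log2 fold change 0.91, adjusted p = 0.0105), and CFL1 (-0.39, adjusted p = 0.0227) and GSK3A (-0.37, adjusted p = 0.0318), which fell. DESeq2 gave an adjusted p to 72 of the 111 and passed these 3 and NEO1 and RAC1, 5 in all. Shares of all tested genes are not given here for the DESeq2 counts.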

How the data were processed

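Poly(A) RNA of 7 HEK-293 samples was sequenced by the authors, reads were trimmed with Trimmomatic 0.39 and Trim Galore 0.6.6 and quantified with Salmon 1.5.1 against GENCODE transcripts of GRCh38, and the authors deposited 1 table of estimated counts per gene (tximport, with a scaling option not given in the sources used here), not normalized. Submitters' notes also name DESeq2. One label gives the compound another number; the name in the titles is used. Members and gene lists were chosen with earlier results of these data known.

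Estimated counts were rounded, genes filtered with filterByExpr, scaled by TMM and fitted in edgeR 4.0.16 (R 4.3.3), quasi-likelihood, with all 7 samples in 1 fit (4 residual degrees of freedom) and Benjamini-Hochberg adjustment over 14863 genes. A gene was called when its adjusted p was below 0.05 and its log2 fold change beyond 1 in either direction. Standard errors came from the log2 fold change and the F statistic. Levels per kb used the canonical GENCODE 44 transcript, matched for 19977 genes, and ratios added 0.5 counts. Alternatives were DESeq2 1.42.0, other scalings, filters, fits, and each sample left out. Values per sample were given for SEMA6D and its class, for called members and for all plexins and neuropilins, and for partner lists for the 3 largest calls. The steps were tested on simulated data. Replicates of a group differed by more than sampling noise (chi-square 7.23 to 13.2 per gene).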

Additional observations from a re-analysis of the deposited data

How the results depend on the processing

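Without the fold limit the members called numbered 16 in acidosis against control, 1 with SRPIN340 and 16 in acidosis against SRPIN340. Leaving out each sample in turn gave 10 to 12, 0 to 0 and 10 to 11 calls in these 3 comparisons, -2.88 to -2.64 for SEMA6D in acidosis and -2.70 to -2.29 for its log2 ratio to SEMA6A. The counts of acidosis against control and against SRPIN340 stayed within 1.5 times under DESeq2 (11 and 11), RLE factors (12 and 11), total counts (15 and 15), no filter (11 and 10), a mean of at least 6 CPM (9 and 9) or fits of 2 groups (11 and 10). Total counts called 40.5% and 42.3% of all tested genes, where TMM called 33.5% and 34.6%. With total counts 8 members were below 0 in acidosis in place of above it: PLXNA1 (-0.52), PLXNB2 (-0.54), SEMA3C (-0.56), SEMA4C (-0.28), SEMA4D (-0.56), SEMA4G (-0.36), SEMA6B (-0.28) and SEMA6C (-0.21). With a mean of at least 6 CPM PLXNA1 (-0.004) and PLXNB2 (-0.02) were. SEMA3C (0.02) and SEMA4D (0.01) were also near 0 with TMM, and their values are given here for TMM and total counts only. With samples left out PLXNA1 ran from -0.20 to 0.21, PLXNB2 from -0.03 to 0.07 and PLXNB3 from -0.77 to 2.32. SEMA6A passed with total counts (-0.82), no filter (-0.28) and a mean of at least 6 CPM (-0.30). Deviations from the group mean correlated at -0.115 to 0.063 between same-numbered samples. In a group of 2 samples the deviations mirror each other, so this cannot tell whether same-numbered samples shared a day or batch. The fit with replicate number as a block used replicates 1 and 2 only, so it lacked acidosis replicate 3. Its calls were 11, 0 and 10, SEMA6D was -2.72, PLXNB1 0.77 and NRP1 with SRPIN340 -0.62, the last 2 not passing. The log2 ratio of SEMA6D to SEMA6A was -2.54, the same as without acidosis replicate 3 alone. With 2 or 3 samples a group, small differences of low genes such as SEMA4A, SEMA3G and PLXNB3 were not detectable at this depth.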
